A study of Mus musculus with 20 samples.

Results

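The 9 genes described here, Pink1, Park7, Fbxo7, Tomm20, Lrrk2, Vps35, Atp13a2, Synj1 and Pla2g6, are genes of familial Parkinson's disease and of mitophagy, and they were taken by symbol from the 24062 genes counted by RNA sequencing in mouse microglia. All 9 were found. Microglia were selected with magnetic beads, against IBA1 per the labels and against CD11b per the study's methods, from the whole brain of single male mice that either overexpressed full-length human wild-type α-synuclein from the murine Thy-1 promoter (mThy1-α-synuclein, HEM in the labels) or were wild-type (WT) littermate controls. Both genotypes had the B6D2F1/J background, and the transgene sits on the X chromosome. There were 6 mThy1-α-synuclein and 4 WT mice aged 7 months, and 5 of each genotype aged 10 months, with 33404096 to 77806399 reads on genes per mouse.

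Mitophagy is the removal of damaged mitochondria by autophagy. The kinase encoded by Pink1 builds up on mitochondria that have lost their membrane potential, where it phosphorylates ubiquitin, and Tomm20 encodes an import receptor of the outer mitochondrial membrane through which precursor proteins enter. Park7 encodes DJ-1, a protein of the oxidative stress response, and Fbxo7 a substrate receptor of an SCF ubiquitin ligase that acts with PINK1. The other 5 genes act in membrane traffic, lysosomes and lipids. Lrrk2 encodes a kinase of Rab GTPases that is abundant in myeloid cells, Vps35 the cargo-binding core of the retromer, Atp13a2 a lysosomal polyamine exporter, Synj1 a phosphoinositide phosphatase that strips clathrin coats from vesicles, and Pla2g6 a calcium-independent phospholipase A2. In the brain these genes are studied mainly in neurons, but all of them can be transcribed in microglia, the resident macrophages of the brain.

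On the GRCm38 (mm10) annotation the genes lie on 5 chromosomes. Pink1 (chr4:138313409-138326307, minus strand), Park7 (chr4:150897133-150914437, minus strand) and Atp13a2 (chr4:140986873-141007330, plus strand) share chromosome 4, and Tomm20 (chr8:126930667-126945844) and Vps35 (chr8:85260392-85299802) lie on the minus strand of chromosome 8. Lrrk2 (chr15:91673175-91816120, plus strand) and Pla2g6 (chr15:79286228-79328390, minus strand) share chromosome 15, Fbxo7 (chr10:86021972-86051873) lies on the plus strand of chromosome 10 and Synj1 (chr16:90936092-91011308) on the minus strand of chromosome 16. The counts are per gene over its exons. Whether reads were counted by strand is not given in the sources used here, and Vps35 shares 171 exonic bases with Orc6 on the opposite strand, so reads from that stretch cannot be told apart.

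The 250 bases before the RefSeq start site (GRCm38.p6) are shown for Pink1, Park7 and Tomm20, because these are the genes with a genotype difference past the cutoff at 1 age or between the ages, as described further on. The sequences run 5′ to 3′ on the strand of the gene, and capitals mark the letters TGCGCA. The window is chr4:138326297-138326546 for Pink1, chr4:150909922-150910171 for Park7 and chr8:126945922-126946171 for Tomm20, all on the minus strand, and the Park7 window lies inside the annotated gene, whose longest transcripts begin upstream.
Pink1: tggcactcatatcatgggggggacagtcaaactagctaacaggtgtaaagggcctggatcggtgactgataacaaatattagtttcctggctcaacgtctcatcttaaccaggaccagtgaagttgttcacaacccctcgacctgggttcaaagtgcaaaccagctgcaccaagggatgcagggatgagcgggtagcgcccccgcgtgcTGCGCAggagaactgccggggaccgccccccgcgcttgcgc
Park7: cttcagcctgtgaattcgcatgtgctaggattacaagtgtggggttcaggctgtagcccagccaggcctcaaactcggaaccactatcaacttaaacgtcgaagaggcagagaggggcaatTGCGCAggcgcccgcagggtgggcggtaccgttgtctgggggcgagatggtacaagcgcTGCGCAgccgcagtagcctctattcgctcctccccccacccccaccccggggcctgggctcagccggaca
Tomm20: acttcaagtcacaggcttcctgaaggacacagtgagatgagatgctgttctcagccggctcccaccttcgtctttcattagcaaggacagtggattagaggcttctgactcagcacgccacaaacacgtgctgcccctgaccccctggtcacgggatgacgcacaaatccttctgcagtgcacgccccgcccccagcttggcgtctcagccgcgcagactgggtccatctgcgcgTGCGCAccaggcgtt
The share of G and C was 57.2% for Pink1, 62.4% for Park7 and 59.6% for Tomm20, and the windows held 13, 16 and 15 CpG dinucleotides. The letters TGCGCA, 1 arm of the palindrome bound by NRF1, a regulator of nuclear genes for mitochondrial proteins, were chosen after these windows had been read, so their presence in all 3 carries no weight. They occurred in 6.43% of the 32851 RefSeq promoter windows of this length and in 3 of the 8 genes with a window. Fbxo7 and Synj1 had more than 1 window, with 10 windows in all, so counts here are per gene and shares per window. No window was found for Vps35. Another 6 strings were searched on both strands. The CCAAT box, read as its 5 letters, was found in the window of Pla2g6 alone, against 33.8% of all windows. None of the 8 genes held the longer NRF1 core GCGCATGCG, which overlaps TGCGCA in part and stood in 1.45% of all windows. None held the ETS string CCGGAA, which stood in 12.0% of all windows, or the CREB palindrome TGACGTCA, which stood in 1.55%. The string TCACGTG of the lysosomal CLEAR element, found in 3.13% of all windows, and the YY1 string AAGATGG, found in 4.49%, were also in none of them.

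All 9 genes were transcribed in every mouse. Levels between genes are given as normalized counts per kilobase of exon, where the normalized count is the read count of a mouse divided by its size factor, which the deposited values had set within each age. In 7-month WT microglia Park7 had the highest mean level, 1845 ± 149 per kilobase (SD, n = 4), followed by Pink1 at 1587 ± 129, Vps35 at 1551 ± 46.1 and Tomm20 at 1551 ± 85.3. These 4 genes formed the upper class in each of the 4 groups, and the ranges of the neighbours in this order overlapped between mice in 7-month WT. Synj1 at 612 ± 115 and Atp13a2 at 295 ± 31.6 were intermediate, and Fbxo7 at 156 ± 12.7, Lrrk2 at 95.2 ± 30.5 and Pla2g6 at 44.6 ± 8.31 per kilobase closed the order. The levels depend on the length used: over the longest transcript alone, Park7 in 7-month WT had 4881, Vps35 2759, Pink1 1786 and Tomm20 1552 per kilobase. From Synj1 down, the order was the same in every group. Each of these neighbours was separated in 7-month WT by every mouse, whereas Lrrk2 and Pla2g6 overlapped in the mThy1-α-synuclein mice of both ages, and Synj1 and Atp13a2 in those of 7 months.

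**Figure D1:**
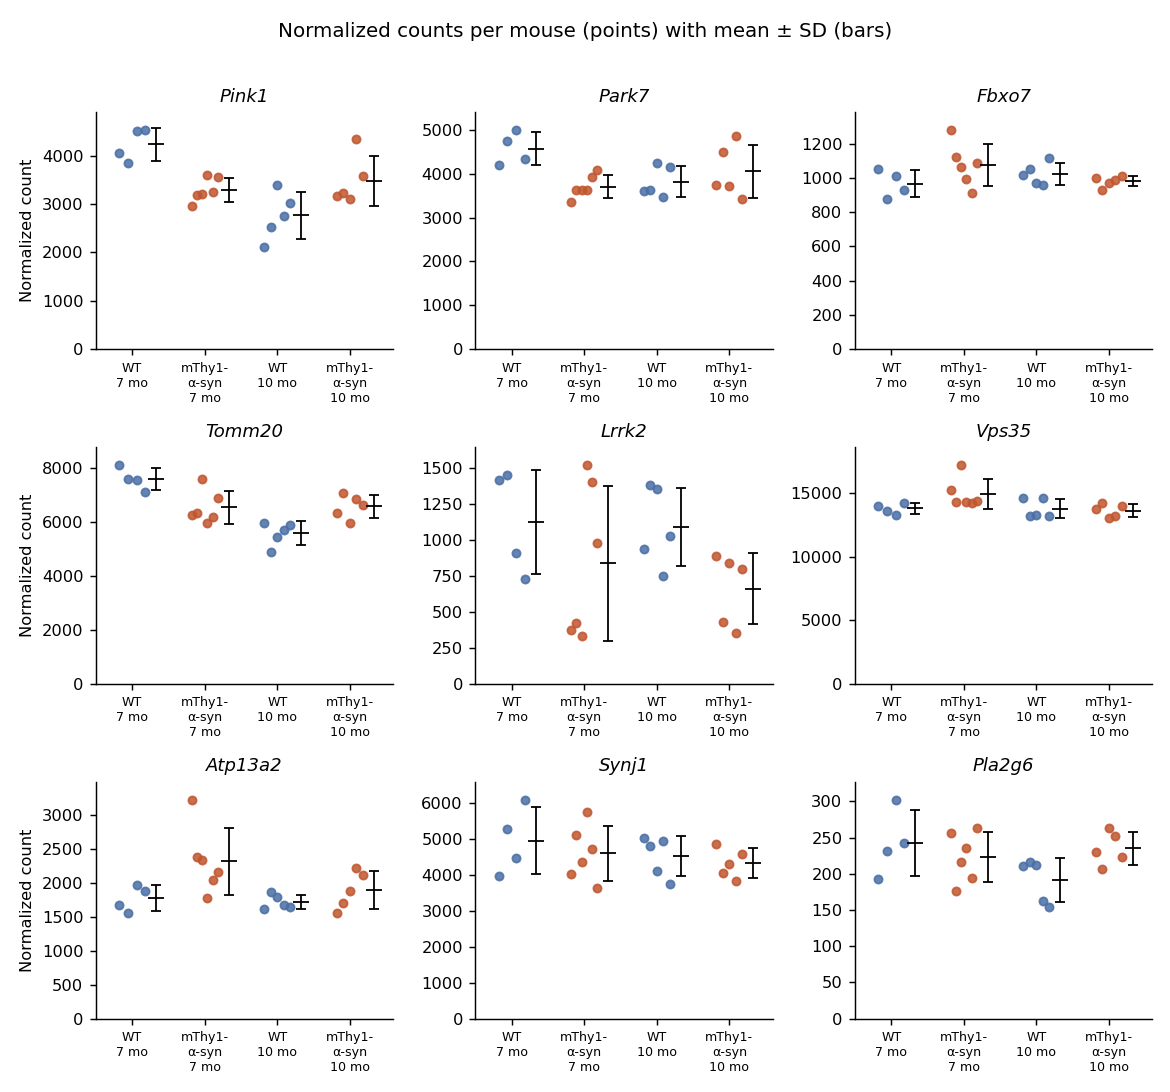
Normalized counts (vertical axes, from 0) of the 9 genes in each of the 20 mice, with WT in blue, mThy1-α-synuclein in orange, and the mean ± SD beside the points of each group. Pink1 and Park7 of the 6 mThy1-α-synuclein mice lie below those of all 4 WT mice at 7 months, Tomm20 lies above WT in all 5 transgenic mice at 10 months, and Lrrk2 spreads from 330 to 1523 within the 7-month transgenic group.

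At 7 months 2 of the 9 genes passed the cutoff, an adjusted p under 0.05 in limma's moderated test on log2(normalized count + 1), and both were lower in mThy1-α-synuclein microglia. Among all 13887 genes tested at this age 4.93% passed, and 2.70% passed as lower. The median log2 fold change was -0.11 over the 9 genes and 0.00 over all tested genes.

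Pink1 was lower in the transgenic mice at 7 months. Its normalized count was 4058, 3847, 4523 and 4537 in the 4 WT mice, and the 6 mThy1-α-synuclein mice had a lowest value of 2960, a median of 3226 and a highest value of 3601. Every transgenic mouse lay below every WT mouse. The means were 4241 ± 344 (SD, n = 4) and 3293 ± 245 (SD, n = 6), a log2 fold change of -0.36 ± 0.08 (SE, limma adjusted p = 0.0137). The lower level passed in 9 of the 10 fits that left out 1 mouse and had an adjusted p of 0.0527 without the WT mouse of replicate 3.

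Park7 showed the same arrangement with a smaller distance. The WT mice had 4192, 4757, 4999 and 4346, and the transgenic mice ranged from 3361 through a median of 3636 to 4077, again with no overlap. The means of 4574 ± 371 (SD, n = 4) and 3709 ± 253 (SD, n = 6) gave a log2 fold change of -0.30 ± 0.08 (SE, limma adjusted p = 0.0326). This call was held by single mice: it was lost in 5 of the 10 fits with 1 mouse left out, without transgenic replicate 1, 2 or 3 or WT replicate 2 or 3, with adjusted p between 0.0595 and 0.108, while the log2 fold change stayed between -0.34 and -0.26.

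The other 7 genes did not pass at 7 months. Tomm20 had 8131, 7606, 7584 and 7108 in WT and 5985, 6301 and 7609 as lowest, median and highest in the transgenic mice. All but 1 of the 6 transgenic mice were below the lowest WT mouse, the exception being replicate 3, which was level with the WT mice, and the log2 fold change was -0.22 ± 0.08 (SE, limma adjusted p = 0.114). Atp13a2 went the other way in its values, with 1677, 1556, 1972 and 1883 in WT and 1780, 2251 and 3223 as lowest, median and highest in the transgenic mice, of which 5 of 6 were above all WT mice. Its log2 fold change of 0.37 ± 0.13 (SE, limma adjusted p = 0.126) passed only when the transgenic mouse of replicate 4 was left out (adjusted p = 0.0461). Vps35 was the third gene, besides Pink1 and Park7, whose genotypes did not overlap: 14000, 13632, 13319 and 14254 in WT against 14258, 14376 and 17230 as lowest, median and highest, a separation of 4 counts between the nearest mice, with a log2 fold change of 0.11 ± 0.07 (SE, limma adjusted p = 0.368). Separation of the genotypes in 3 of 9 genes stands beside 7.53% of all genes tested at this age. Fbxo7, Lrrk2, Synj1 and Pla2g6 overlapped, with log2 fold changes of 0.15, -0.65, -0.10 and -0.11 and limma adjusted p between 0.406 and 0.748.

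Markers of other brain cells also differed between the genotypes at 7 months. The summed normalized count of 15 neuronal markers was 762 to 1141 in transgenic and 1448 to 2246 in WT mice, that of 10 oligodendrocyte markers 7871 to 10231 and 12788 to 18271, and that of 8 endothelial markers 3414 to 5195 and 5598 to 6721. None of these ranges overlapped, so a smaller share of such cells or RNA and a lower level in microglia cannot be told apart for Pink1 and Park7, which neurons and glia also transcribe. The sum of 10 astrocyte markers overlapped, 9752 to 12510 in transgenic and 9428 to 12171 in WT mice, although 5 of the 10 passed as lower and 1 as higher. The 12 microglial markers summed to 2089680 to 2407660 and 2020410 to 2279320, with no member past the cutoff, and the neuronal markers Rbfox3 and Syt1 had at most 152 and 253 counts in any mouse of this age. In bulk RNA, fewer cells of a type and less RNA per cell cannot be told apart.

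At 10 months none of the 9 genes passed the cutoff in limma's test, against 7.67% of the 13627 genes tested, and 3 had an unadjusted p under 0.05. edgeR's quasi-likelihood test also called 0 of 9, and DESeq2 called 1, Tomm20. The median log2 fold change was 0.08 over the 9 genes and 0.00 over all tested genes.

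Tomm20 came nearest. The WT mice had 5981, 4905, 5438, 5726 and 5914 normalized counts and the transgenic mice 6361, 7070, 5990, 6876 and 6650. All 5 transgenic mice were above all 5 WT mice, the nearest being 5990 and 5981, which held for 1 of 9 genes and for 7.27% of all tested genes. The means were 5593 ± 438 and 6589 ± 427 (SD, n = 5 each) and the log2 fold change was 0.24 ± 0.07 (SE, limma adjusted p = 0.0559). The adjusted p was 0.0239 with DESeq2 and 0.0472 when the spread was estimated from all 20 mice.

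Pink1 at 10 months had 2115, 2536, 3400, 2749 and 3031 in WT and 3174, 3222, 3110, 4353 and 3575 in the transgenic mice. The genotypes overlapped through 1 WT mouse, replicate 3, and all 5 transgenic values were above the WT mean. The log2 fold change was 0.34 ± 0.12 (SE, limma adjusted p = 0.111). Park7, with 3597, 3619, 4250, 3472 and 4152 in WT and 3734, 4504, 3729, 4871 and 3430 in transgenic mice, overlapped on both sides (log2 fold change 0.08 ± 0.10, SE, limma adjusted p = 0.676). Lrrk2 had 939, 1380, 1357, 750 and 1027 in WT and 886, 429, 841, 356 and 800 in transgenic mice, a log2 fold change of -0.78 ± 0.29 (SE, limma adjusted p = 0.142), with 2 transgenic mice far below the rest. Pla2g6 had 211, 217, 212, 163 and 155 against 230, 207, 263, 252 and 224, of which 4 of 5 were above all WT mice (0.31 ± 0.15, SE, limma adjusted p = 0.230). The remaining genes, Fbxo7, Vps35, Atp13a2 and Synj1, had log2 fold changes between -0.06 and 0.13 and adjusted p between 0.441 and 0.908.

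The genotype difference was then compared between the ages in 1 model of all 20 mice, as the log2 fold change at 10 months minus that at 7 months. Each age had its own scaling and its own pair of groups, so a constant offset between the ages drops out of this difference, while age and any processing that went with it cannot be told apart. Of the 9 genes 2 passed, Pink1 and Tomm20, both with the higher value at 10 months. Over all 14457 genes tested 6.36% passed, and 3.74% passed in that direction.

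For Pink1 the difference between the ages was 0.71 ± 0.15 (SE, limma adjusted p = 0.00743), made of -0.36 at 7 months and 0.34 at 10 months. For Tomm20 it was 0.46 ± 0.10 (SE, limma adjusted p = 0.0106), made of -0.22 and 0.24. In both genes the transgenic mice thus had the lower mean at 7 months and the higher mean at 10 months, although only the 7-month difference of Pink1 passed at a single age. The means of Pink1 at 7 and 10 months were 3293 and 3487 in transgenic and 4241 and 2766 in WT mice. Those of Tomm20 were 6552 and 6589 in transgenic and 7607 and 5593 in WT mice. Each age had its own scaling, so levels between the ages were not tested. The calls of Pink1 and Tomm20 between the ages were made in all 20 fits that left out 1 mouse, with adjusted p of at most 0.0180 for Pink1 and 0.0304 for Tomm20. Park7 had a difference of 0.38 ± 0.13 that did not pass (SE, limma adjusted p = 0.0719) and passed in DESeq2 (adjusted p = 0.0448). The other 6 genes had differences between -0.24 and 0.42, with limma adjusted p from 0.271 to 0.929.

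At 10 months the neuronal and oligodendrocyte markers of the genotypes overlapped. The neuronal sum was 722 to 1193 in transgenic and 944 to 1383 in WT mice and the oligodendrocyte sum 7599 to 10788 and 8797 to 15139. In the comparison between the ages 5 of 14 neuronal and 6 of 10 astrocyte markers passed as higher, the direction of Pink1 and Tomm20. In the same comparison 0 of 12 microglial, 0 of 10 oligodendrocyte and 0 of 8 endothelial markers passed. All 6 border macrophage and all 6 neutrophil markers had lower values, with 0 past the cutoff. Of the 12 microglial markers 4 passed as higher in the transgenic mice at 10 months and 0 as lower, with a median log2 fold change of 0.14, also the direction of Pink1 and Tomm20 at that age. The part of these markers in the 2 differences was not tested.

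**Figure D2:**
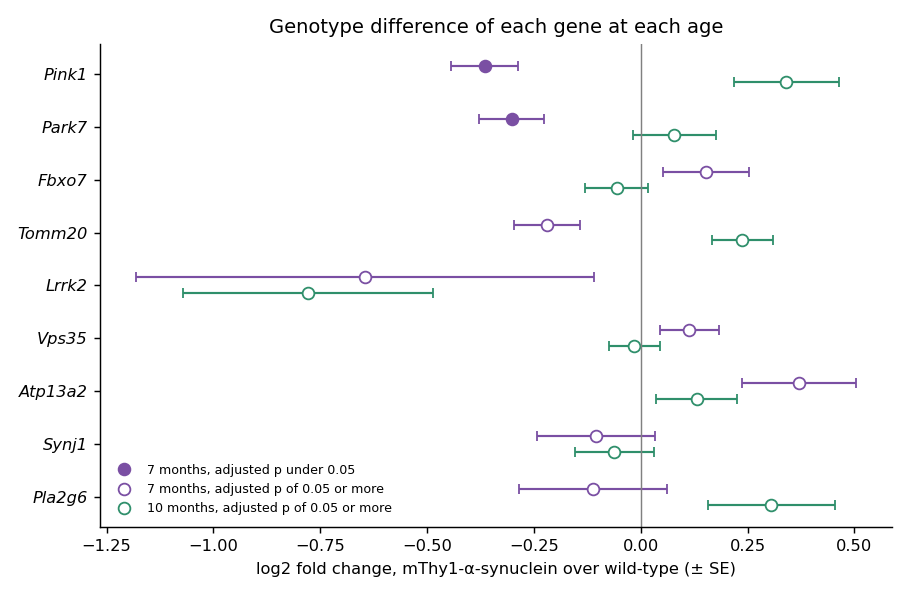
The log2 fold change of each gene, mThy1-α-synuclein over WT (horizontal axis, points with ± SE), at 7 months in purple and 10 months in green, with filled points where the limma adjusted p was under 0.05. Pink1 and Tomm20 lie left of 0 at 7 months and right of 0 at 10 months, and Lrrk2 has the widest error bars, 0.53 at 7 months and 0.29 at 10 months.

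Within each of the 4 groups Lrrk2 varied more among mice than any other of the 9 genes. In the 7-month transgenic mice replicates 1 to 3 had 372, 424 and 330 normalized counts and replicates 4 to 6 had 1523, 1404 and 977, a coefficient of variation of 64.4%. In the 3 other groups it was 25.0% to 37.7%, and in 7-month WT the values were 1416, 1450, 912 and 730. The values followed the summed level of 6 neutrophil markers (S100a8, S100a9, Retnlg, Camp, Ngp and Mmp8), which was 66529, 64943 and 39487 in transgenic replicates 1 to 3 and 238263, 394781 and 217933 in replicates 4 to 6. Neutrophils carry CD11b, as microglia do. At 10 months the 2 transgenic mice with Lrrk2 of 429 and 356 had marker sums of 73213 and 64662, the lowest of that age.

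After subtraction of the group means on the log2 scale, Lrrk2 and the neutrophil sum had Pearson's r = 0.93 (permutation p = 1e-05, the smallest the 100000 permutations within groups can give) and Spearman's rho = 0.88 over the 20 mice. This was 1 of 72 relations of the 9 genes with 8 marker sums, computed after the pattern had been seen, and the Benjamini-Hochberg adjusted permutation p was 0.00072 for r and 0.0274 for rho. It was 0.93 at each age and 0.93 without the 2 mice farthest from the median of the marker sum. No other of the 72 relations had an adjusted permutation p under 0.05. Lrrk2 had r = 0.64 with the T and B cell sum and -0.64 with the microglial sum (adjusted permutation p = 0.163 and 0.147). With the log2 neutrophil sum as a covariate, added after the data were seen, the Lrrk2 log2 fold change moved from -0.65 to -0.31 at 7 months and from -0.78 to 0.17 at 10 months, and its SE from 0.53 to 0.17 and from 0.29 to 0.17. The 7-month calls of Pink1 and Park7 (-0.35 and -0.28, limma adjusted p = 0.0152 and 0.0385) and the calls of Pink1 and Tomm20 between the ages (0.71 and 0.43, limma adjusted p = 0.00650 and 0.0121) were past the cutoff with the covariate too. At 10 months Tomm20 had 0.13 ± 0.11 and Pink1 0.32 ± 0.19 with it (SE, limma adjusted p = 0.659 and 0.528). At 10 months the mean neutrophil sum was 117441 in transgenic and 249648 in WT mice, with overlapping ranges. The covariate and genotype are therefore hard to tell apart at that age and in the comparison between the ages, which includes it. The part of neutrophil RNA in Lrrk2 and in these calls was not tested, since the covariate cannot decide it.

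**Figure D3:**
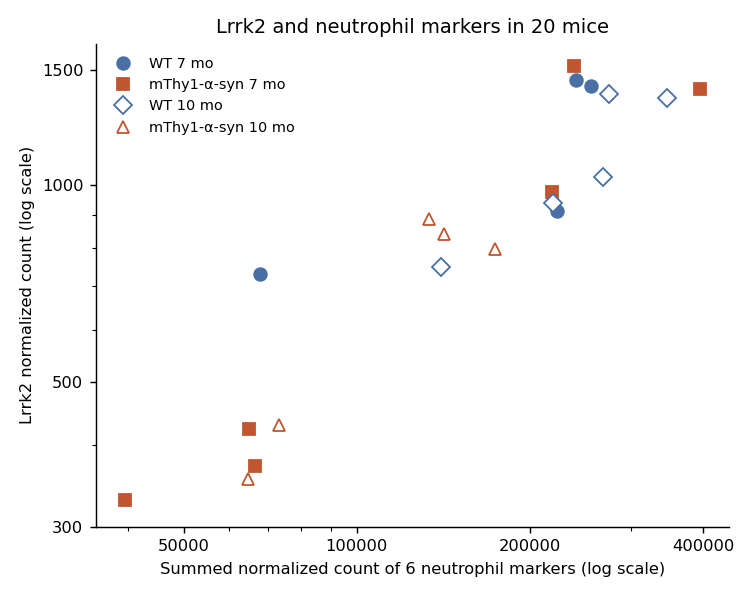
Normalized count of Lrrk2 (vertical axis, log scale) against the summed normalized count of 6 neutrophil markers (horizontal axis, log scale) in the 20 mice, with filled symbols for 7 months and open symbols for 10 months. The 5 mice with Lrrk2 of at most 429 have marker sums of at most 73213, and 1 WT mouse of 7 months with a sum of 67778 has Lrrk2 of 730.

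For each gene the 3 genes whose deviations from the group means ran most nearly parallel to its own over the 20 mice were taken from 10885 genes, as a description without a test, since they were picked for the highest r and share libraries. Pink1 was nearest to Ak1 (r = 0.88), the cytosolic adenylate kinase, then Snn and Ndrg2, and Park7 to Rrp1 (r = 0.92), Eef1d and R3hcc1. Tomm20 was nearest to Sumf1 (r = 0.90), Spcs3 and Lamp1, genes of the endoplasmic reticulum and the lysosome, and Fbxo7 to Ndufb6 (r = 0.84), Smim7 and H2-T23. The traffic and lipid genes had other companions. Lrrk2 was nearest to Syne1 (r = 0.97), Ly75 and Kif14. Vps35 was nearest to Arl8b (r = 0.92), a lysosomal GTPase, then C3ar1 and Golph3l. Atp13a2 was nearest to the microglial marker Tmem119 (r = 0.94), then the endolysosomal metal transporter Slc11a1 and Slco2b1. Synj1 was nearest to Gpatch8 (r = 0.94), Nktr and Nrip1, and Pla2g6 to Lonp2 (r = 0.83), Rxra and Bcr.

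Among the 36 pairs of the 9 genes themselves, the highest r were 0.61 for Fbxo7 with Atp13a2, 0.60 for Tomm20 with Vps35 and 0.56 for Pink1 with Park7, and the lowest was -0.61 for Lrrk2 with Atp13a2. Pink1 and Tomm20, which both passed in the comparison of the ages, had r = 0.01 within groups. Tested genes starting within 1 megabase of a called gene mostly did not pass. At 7 months 1 of 20 such neighbours of Pink1 passed as lower (Hspg2, -1.41 ± 0.38, SE, limma adjusted p = 0.0452), and 1 of 10 of Park7 passed as higher (Gpr157, 0.38 ± 0.10, SE, limma adjusted p = 0.0392). Between the ages 1 of 23 neighbours of Pink1 passed as higher (Camk2n1, 0.63 ± 0.17, SE, limma adjusted p = 0.0239) and 0 of 6 of Tomm20, whose neighbours had a median difference of 0.38 beside 0.46 for Tomm20 itself. These are too few genes to set beside the 4.93% of all genes that passed at 7 months and the 6.36% between the ages.

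Genes that work with the 9 were described in 10 lists, of which 158 genes were in the table. Of 152 tested at 7 months 2 passed as higher and 4 as lower, of 149 at 10 months 8 passed as higher and 5 as lower, and of 154 between the ages 6 passed in each direction. The medians of the log2 fold changes were 0.02, -0.01 and 0.01, near the 0.00 of all tested genes in each comparison. These counts can be read against the 4.93%, 7.67% and 6.36% of all genes, and no list was tested against the other genes. Of the 31 calls of list genes 12 were also made in every fit without 1 mouse, while Chchd2, Fbxl4 and Tomm34 at 10 months passed in only 1, 2 and 2 of 10 such fits, Rab32 at 7 months in 2 of 10 and Dnm1 between the ages in 3 of 20. Synj2 and Snx5 at 10 months each passed in 3 of 10. Hspa8 at 10 months and Pla2g15 at 7 months each passed in 5 of 10, and Rab32 between the ages in 6 of 20.

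Of 26 mitophagy receptors, adaptors and kinases tested, 1 passed at each age, beside 4.93% and 7.67% of all genes. Atpif1, the inhibitor of the mitochondrial ATP synthase in its reverse mode, passed as lower at 7 months (3961 ± 236 in WT and 2995 ± 259 in transgenic mice, SD, log2 fold change -0.41 ± 0.08, SE, limma adjusted p = 0.00730), and Usp8, a deubiquitinase of endosomes and mitophagy, passed as higher at 10 months (12630 ± 487 and 15356 ± 1137, SD, log2 fold change 0.28 ± 0.07, SE, limma adjusted p = 0.0209). None of the 26 passed between the ages in limma or edgeR, where 6 had an unadjusted p under 0.05 in limma and DESeq2 called 2. Of 11 other genes of the outer membrane translocase and its assembly, Tomm34, a cytosolic cochaperone of import, was the only one past the cutoff of limma in any of the 3 comparisons (lower at 10 months, -0.28 ± 0.08, SE, limma adjusted p = 0.0414). Tomm22, Tomm40 and Tomm70a thus did not pass where Tomm20 did, nor did Tomm5, Tomm6 and Tomm7. Their differences between the ages were 0.08, -0.15, 0.05, 0.03, 0.21 and 0.02 in this order, beside 0.46 for Tomm20. Whether they differ from that of Tomm20 was not tested.

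Of 15 redox and glyoxalase genes set beside Park7, Sod1, the cytosolic superoxide dismutase, passed as lower at 7 months (6620 ± 735 in WT and 4171 ± 582 in transgenic mice, SD, log2 fold change -0.67 ± 0.11, SE, limma adjusted p = 0.00258). At 10 months the thioredoxin gene Txn1 passed as lower (-0.52 ± 0.11, SE, limma adjusted p = 0.0135) and Gclc, the catalytic subunit of the first enzyme of glutathione synthesis, as higher (0.51 ± 0.07, SE, limma adjusted p = 0.000943). Between the ages Gclc passed as higher (0.35) and the heme oxygenase gene Hmox1 as lower (-0.57, limma adjusted p = 0.0221 and 0.0249). Of 9 partners of Fbxo7 in the SCF ligase and the proteasome, Fbxl4 passed as higher at 10 months (0.32 ± 0.09, SE, limma adjusted p = 0.0468) and Cdk6 between the ages (0.74 ± 0.21, SE, limma adjusted p = 0.0321). At 7 months 0 of these 9 passed in limma, edgeR or DESeq2, with 2 at an unadjusted p under 0.05 in limma.

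The other Parkinson's disease genes moved in both directions. At 7 months 1 of 20 passed as higher, Rab32, a GTPase that binds LRRK2 (0.31 ± 0.08, SE, limma adjusted p = 0.0472), and 1 as lower, Mapt, the neuronal tau gene, at 182 ± 96.8 counts in WT and 68.9 ± 11.2 in transgenic mice (SD). At 10 months Gigyf2, a translational repressor, passed as higher (0.34 ± 0.07, SE, limma adjusted p = 0.0153) and the mitochondrial gene Chchd2 as lower (-0.25 ± 0.07, SE, limma adjusted p = 0.0498). Between the ages Gigyf2 passed as higher (0.52) and Rab32 as lower (-0.44, limma adjusted p = 0.00430 and 0.0471).

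Retromer and sorting nexin genes, the partners of Vps35, had 0 calls of 11 at 7 months in limma, edgeR and DESeq2, with 0 at an unadjusted p under 0.05 in limma. They had 1 limma call of 11 at 10 months, Snx5 as higher (0.25 ± 0.07, SE, limma adjusted p = 0.0385), and 1 between the ages, Snx2 as lower (-0.40 ± 0.11, SE, limma adjusted p = 0.0241). Of 21 Rab substrates and partners of LRRK2 tested at 7 months, Rab32 passed as above and Rab3c, a synaptic vesicle GTPase, as lower, at 106 ± 26.9 counts in WT and 25.4 ± 15.7 in transgenic mice (SD, limma adjusted p = 0.0131). Rab3c and Mapt moved with the neuronal marker sums given above, and the part of neuronal RNA in them was not tested. Ppm1h, the phosphatase that reverses the phosphorylation of Rab proteins by LRRK2, was lower at 10 months (-0.29 ± 0.07, SE, limma adjusted p = 0.0245) and between the ages (-0.37 ± 0.10, SE, limma adjusted p = 0.0295), and Rab3c was higher between the ages (2.51, limma adjusted p = 0.0157).

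Around Synj1, 20 genes of clathrin uncoating and phosphoinositide turnover were tested at each age. At 7 months 0 passed in limma, with 9 at an unadjusted p under 0.05, 0 in edgeR and 2 in DESeq2. At 10 months its paralog Synj2 (0.34 ± 0.09) and the kinase gene Pip5k1c (0.31 ± 0.07), whose product makes the lipid that synaptojanins remove, passed as higher (SE, limma adjusted p = 0.0389 and 0.0162), and Hspa8, the uncoating chaperone, as lower (-0.52 ± 0.12, SE, limma adjusted p = 0.0252). Hspa8 had 89625 ± 21457 counts in WT and 61316 ± 3818 in transgenic mice (SD). Between the ages Pip5k1c (0.48) and the neuronal dynamin gene Dnm1 (3.08, at 14.3 to 55.7 mean counts over the groups) passed as higher and Hspa8 as lower (-0.76, limma adjusted p = 0.00965, 0.0461 and 0.00918). Dnm1 moved in the direction of the neuronal markers between the ages (5 of 14 passed as higher, median log2 difference 2.01), and the part of neuronal RNA in it was not tested. Beside Pla2g6, Pla2g15, a lysosomal phospholipase A2, was higher at 7 months (0.41 ± 0.10, SE, limma adjusted p = 0.0307) and lower between the ages (-0.58 ± 0.12, SE, limma adjusted p = 0.00743). At 10 months 0 of the 10 phospholipase and cardiolipin genes passed in limma, edgeR or DESeq2, with 2 at an unadjusted p under 0.05 in limma. None of the P5 ATPase and polyamine genes around Atp13a2 passed in limma at 7 months (11 tested), at 10 months (10 tested) or between the ages (11 tested). Of these 0, 1 and 2 had an unadjusted p under 0.05 in limma, and edgeR and DESeq2 each called 1 at 10 months and 0 otherwise.

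The list genes called at 10 months rest on mice whose mean neutrophil marker sum was also lower in the transgenic group. The sums overlapped, at 64662 to 174042 in transgenic and 140289 to 346153 in WT mice. With the neutrophil sum as a covariate 0 of the 13 passed, and 37 of all 13627 genes did in place of 1045, with 1736 at an unadjusted p under 0.05. Summed border macrophage markers were also lower in the transgenic mice, 13355 to 17223 against 17889 to 22007. The part of neutrophil or border macrophage RNA in these calls was not tested, since the covariate cannot decide it.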

How the data were processed

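RNA was measured in bead-selected microglia of 20 mice. Per the labels and the study's methods, the authors trimmed reads with Trim Galore 0.6.7, mapped them to mm10 with HISAT2 2.2.1 and counted them with featureCounts; the deposited signal per gene is the read count divided by the DESeq2 (1.44.0) size factor of the mouse. Comparison with size factors recomputed within each age showed that they had been set there. Whole reads were recovered for 100% of values (tolerance 0.001). The 20 single-mouse files equalled the joint table. Same-group mice differed by at least 23.4 chi-square units per gene, so no library was counted as a repeat. Controls were littermates per the study's methods, but which mice shared a litter is not given in the sources used here, so litter is not in the fits and p-values measure the spread between these mice.

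Genes were tested if they reached 10 in 4 or more mice at 7 months or in 5 or more at 10 months. For the comparison of ages they had to reach 10 in 4 or more of all 20 mice. The test was limma 3.58.1 (trend, robust) on log2(value + 1), with Benjamini-Hochberg adjustment over all tested genes and a cutoff of 0.05. For low genes these log2 changes can lie above or below the log2 ratio of the group means. Alternatives were edgeR 4.0.16 and DESeq2 1.42.0 on the recovered reads, other pseudocounts, no filter, log2 CPM, a replicate block, a fit of all 20 mice, leaving out each mouse, and a neutrophil covariate added after seeing the data. Lengths and positions came from GENCODE vM21. The fits were tested on simulated data. The 9 genes, the 10 lists and the markers were chosen with earlier results of these data known. Named were the 9 genes, list genes past the cutoff (1 is counted but not reported here by name), the 3 nearest companions of each gene and called neighbours.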

Additional observations from a re-analysis of the deposited data

Results flagged for a closer look

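The genotype difference of Pink1 was unlike at the 2 ages, by 0.71 on the log2 scale in the test of that difference itself (10 minus 7 months, limma adjusted p = 0.00743), and that of Tomm20 by 0.46 (limma adjusted p = 0.0106). Vps35 in the 7-month mThy1-α-synuclein mouse of replicate 3, at 17230 normalized counts, stood apart from the other 5 mice of its group by Dixon's test. Of 36 groups of mice checked (9 genes in 4 groups) this was the only one, and chance sets apart about 1 in 20. Without this mouse the Vps35 log2 fold change at 7 months was 0.07 (limma adjusted p = 0.566), beside 0.11 with it.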

How the results depend on the processing

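Of 234 fits of the 9 genes under settings other than leaving out a mouse, 226 kept direction and side of the cutoff, 3 newly passed and 5 changed sign, none of the last called. At 10 months the 9 genes had 1 call with DESeq2 and 1 with the fit of all 20 mice, in place of 0. With the neutrophil covariate, the log2 fold change became -0.0664 for Park7 and 0.17 for Lrrk2 at 10 months and 0.31 for Lrrk2 between the ages. The replicate block kept only replicate numbers present in both genotypes, so the 7-month transgenic mice of replicates 5 and 6 were left out. With it, the difference between the ages became 0.25 for Lrrk2 and -0.0250 for Synj1. Of 360 fits without 1 mouse 340 were unaltered in these respects, 6 lost a call, 3 gained 1 and 11 changed sign. The count of called genes ranged from 0 (without WT replicate 3) to 3 at 7 months, stayed at 0 at 10 months and was 2 or 3 between the ages. Without 1 mouse the log2 fold change ranged from -0.20 to 0.00 for Synj1 at 7 months (0.001063 without WT replicate 4), from -0.0313 to 0.00577 for Vps35 at 10 months, and between the ages from -0.35 to 0.0949 for Lrrk2 and from -0.0627 to 0.14 for Synj1. The causes were not tested. Replicate numbers did not pair the mice: deviations of same-numbered mice correlated at -0.13 to 0.05, and 0 of 4 transgenic mice at 7 months and 1 of 5 at 10 months correlated best with the WT mouse of its own number. The block kept the 2, 0 and 2 calls among the 9 genes. It moved the count over all genes from 684 to 445 at 7 months, 1045 to 916 at 10 months and 920 to 484 between the ages. At 7 months and between the ages, the block and the loss of mice that came with it cannot be told apart. DESeq2 called 1158, 1694 and 1330 genes in all. Without 1 mouse these counts ran from 280 (WT replicate 1) to 860, from 489 (WT replicate 2) to 1232, and from 618 (10-month WT replicate 1) to 1097. Of 31 calls of list genes 12 were made under every setting apart from the added covariate and without each mouse in turn, among them those of Atpif1 and Sod1 at 7 months, Gclc, Gigyf2, Pip5k1c and Txn1 at 10 months and Gigyf2, Hspa8, Pip5k1c, Pla2g15 and Rab3c between the ages. The number of called list genes, 6, 13 and 12 in the 3 comparisons, was 12, 20 and 16 with DESeq2 and 3, 10 and 5 with the block. Taking the longest transcript in place of all exons moved 2 to 4 genes per group in the order of levels, all within the upper 4. The lowest read count of any of the 9 genes in a mouse was 121, for Pla2g6.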
